A study of Homo sapiens with 30 samples.

Results

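The genes described here are the 2 corticoid receptors, NR3C1 and NR3C2, and 5 classical glucocorticoid target genes, SGK1, DUSP1, KLF9, TSC22D3 and ZBTB16, in LNCaP cells given different doses of an androgen. They were chosen by name, and all 7 were found among the 37843 genes of the LNCaP count table. LNCaP is an androgen-sensitive epithelial line of prostate cancer that was isolated from a lymph node, and R1881 is a synthetic androgen that cells metabolise slowly. The study sets low doses against a high one because the response to androgen is described there as biphasic. Cells of every group were plated in medium with 8% serum stripped of hormones with charcoal and dextran, and were left for 48 h. They then received vehicle or R1881 at 0.03, 0.06, 0.1 or 10 nM for 24 h, and poly(A) RNA was sequenced from 3 libraries per group, numbered 2, 3 and 4. Separate cultures are not stated for these libraries, so p-values measure the spread between these libraries, which may be technical. No genotype, transgene or second agent is named for any group, and no group was given a glucocorticoid. LNCaP is a single line, so the values describe this line alone.

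The glucocorticoid receptor, encoded by NR3C1, and the mineralocorticoid receptor, encoded by NR3C2, are hormone-activated transcription factors of the steroid receptor family. They rest in the cytoplasm with chaperones, enter the nucleus when hormone binds and recognise closely similar DNA elements. Many genes named for their response to glucocorticoids can also be induced by androgen in prostate cells, and in prostate cancer a rise of the glucocorticoid receptor has been linked to escape from drugs that block androgen signalling.

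Library totals ran from 30666460 to 61199483 counts. The 5 libraries numbered 3 stood apart: the share of mitochondrial transcripts in them was 9.31% to 10.67%, and in the remaining 10 libraries 6.14% to 7.69%, so values without them are given where they matter. All 12 markers of luminal prostate epithelium were in the table, and their summed level ran from 15000 to 15700 CPM at 10 nM and from 6890 to 7310 CPM in vehicle; CPM stands for counts per 1000000 of the TMM-scaled library size. Markers of other cell types were far lower. In vehicle the summed level of 5 basal markers was at most 8.17 CPM, that of 7 leukocyte and endothelial markers at most 20.1 CPM, and that of 7 fibroblast markers at most 40.4 CPM. The androgen response itself was large: KLK3, which encodes prostate-specific antigen, averaged 3855 ± 79.6 CPM at 10 nM and 103 ± 7.65 CPM in vehicle (SD, n = 3 each).

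A gene was called changed when its Benjamini-Hochberg adjusted p, from edgeR's quasi-likelihood test over 18403 genes, was under 0.05. All 7 genes passed the low-count filter of 0.245 CPM in at least 3 libraries. NR3C1 reached that level in 10 of 15 libraries and in all 3 libraries only of vehicle and 0.03 nM, and in no library at 10 nM, so it entered the test through the groups where it was highest; counts of the 7 are therefore also given without it. The other 6 reached it in all 15 libraries. RNA was taken from whole cultures, in which fewer cells of a kind and less RNA per cell cannot be told apart.

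At 0.03 nM 1 of the 7 genes was higher than in vehicle and 0 were lower; of all tested genes 8.63% changed, 5.47% higher and 3.16% lower. With the replicate number as a block 2 of the 7 were called there. At 0.06 nM 1 was higher and 4 were lower, where 31.2% of tested genes changed, 16.9% higher and 14.3% lower. At 0.1 nM 2 were higher and 4 were lower, where 42.1% changed, 21.5% higher and 20.6% lower. At 10 nM 2 were higher and 2 were lower, where 57.6% changed, 29.3% higher and 28.3% lower. Without NR3C1 the lower genes were 3 of 6 at 0.06 nM, 3 of 6 at 0.1 nM and 1 of 6 at 10 nM. Between adjacent doses, 1 gene was higher at 0.06 than at 0.03 nM, and of tested genes 6.26% changed, 4.2% higher and 2.06% lower. The replicate block gave 2 of the 7 called there, and 2926 of all tested genes in place of 1152. At 0.1 against 0.06 nM none of the 7 was called by edgeR, 2 had an unadjusted p under 0.05 and DESeq2 called 1; of tested genes 1.36% changed, 1.07% higher and 0.293% lower. At 10 against 0.1 nM 5 were higher and 1 was lower, where 40.1% changed, 20.6% higher and 19.5% lower. By pattern, SGK1 was high at 10 nM, ZBTB16 stepped up with dose, and DUSP1, KLF9 and TSC22D3 dipped at 0.06 and 0.1 nM. The mean of NR3C1 fell with each dose, and NR3C2 was called lower than vehicle at 10 nM alone.

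**Figure D1:**
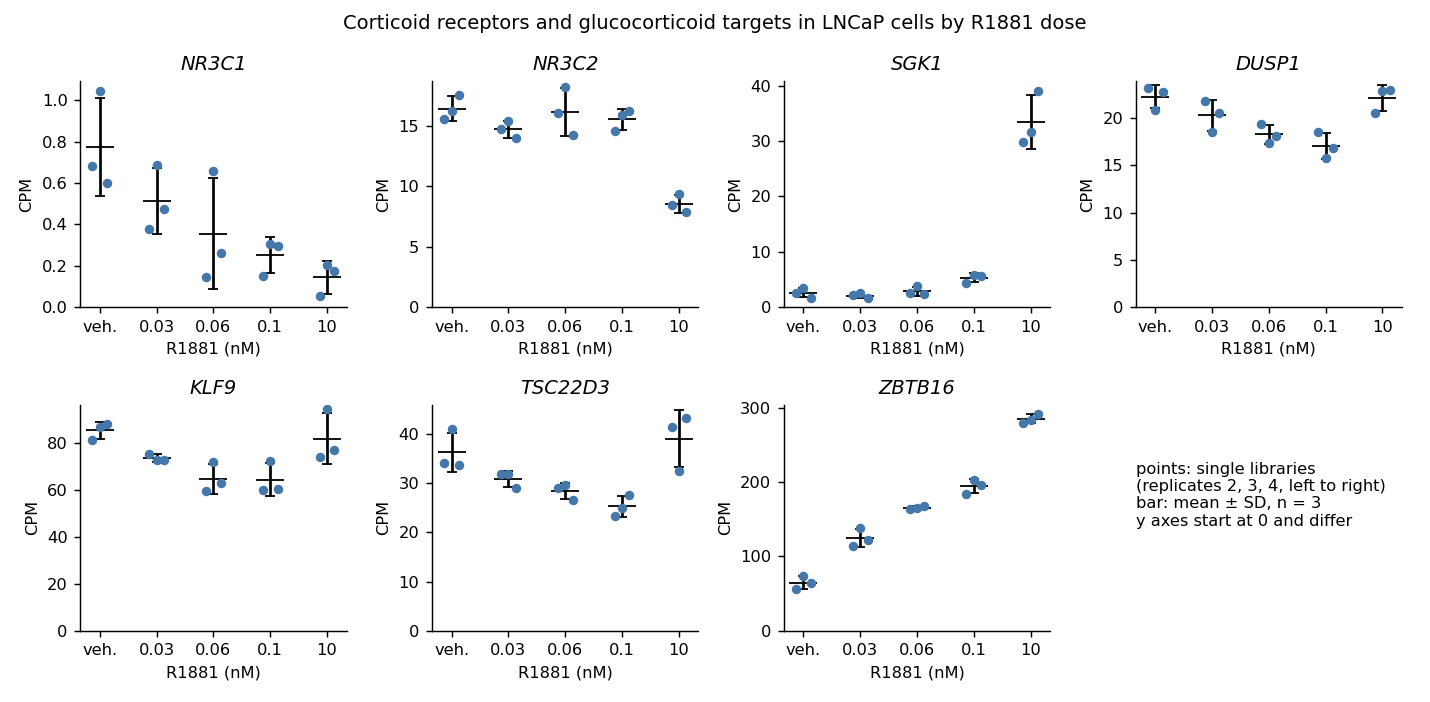
Level of each of the 7 genes in CPM (y axes start at 0 and differ between panels) by R1881 dose, with vehicle at the left; points are single libraries, and bars are means ± SD (n = 3). SGK1 lay between 29.9 and 39.0 CPM at 10 nM and at or below 5.79 CPM in every other library, while DUSP1, KLF9 and TSC22D3 had their lowest means at 0.1 nM.

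**Figure D2:**
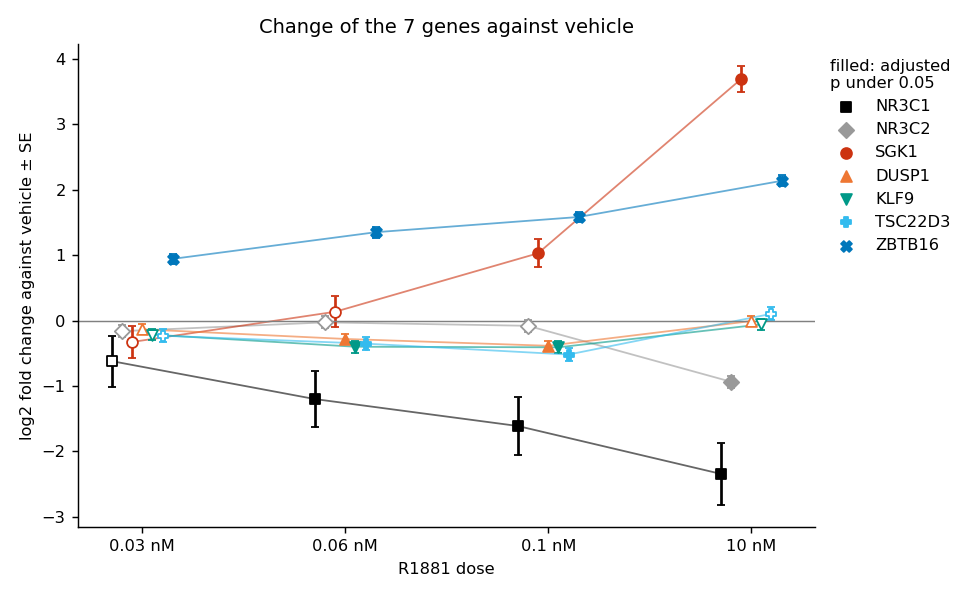
Log2 fold change of each gene against vehicle (y axis, ± SE from the edgeR fit) at the 4 R1881 doses (x axis, evenly spaced and not to scale); filled symbols had an adjusted p under 0.05. SGK1 reached 3.69 and ZBTB16 2.14 at 10 nM, where NR3C1 was at -2.34 and NR3C2 at -0.93.

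NR3C1 (ENSG00000113580.15; chr5:143277931-143435512, minus strand, GRCh38) fell with androgen, from an already low level. Its counts were 29, 47 and 26 in the vehicle libraries numbered 2, 3 and 4, then 16, 24 and 24 at 0.03 nM, 6, 20 and 10 at 0.06 nM, 6, 14 and 10 at 0.1 nM, and 2, 11 and 7 at 10 nM. In CPM these were 0.680, 1.04 and 0.600 in vehicle, 0.378, 0.687 and 0.472 at 0.03 nM, 0.147, 0.658 and 0.262 at 0.06 nM, 0.153, 0.305 and 0.297 at 0.1 nM, and 0.0527, 0.204 and 0.177 at 10 nM. All libraries at 0.1 and 10 nM lay below all vehicle libraries, while the 0.06 nM libraries overlapped those of vehicle and the 10 nM libraries overlapped those of 0.1 nM. In each of the 5 groups the highest value was in the library numbered 3.

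NR3C1 was 5.08-fold lower at 10 nM than in vehicle, a log2 fold change of -2.34 ± 0.47 (SE; edgeR adjusted p = 0.000372). A fit with no low-count filter used the same NR3C1 counts, so its value, again -2.34, is no separate support. The p-values of that fit cannot be read on the same scale, since with the many genes near 0 it gave ZBTB16 at 0.03 nM an adjusted p of 6.15e-46, against 8.24e-07 with the filter. At 0.1 nM it was -1.61 ± 0.44 (edgeR adjusted p = 0.00676), and at 0.03 nM it was -0.62 ± 0.39, which did not pass (edgeR adjusted p = 0.389). Without the libraries numbered 3 the values at 10 and 0.1 nM were -2.44 and -1.51, still called. The call at 0.06 nM (-1.20 ± 0.43, edgeR adjusted p = 0.0412) was fragile: it was lost with DESeq2 (adjusted p = 0.0703), in a fit of only the 2 groups (0.0568), and without vehicle library 2 (0.0555), vehicle library 3 (0.169), 0.06 nM library 2 (0.213) or 0.06 nM library 4 (0.146). Without 0.06 nM library 3 the value was -1.92. None of the steps between adjacent doses passed, among them 10 against 0.1 nM at -0.73 ± 0.57 (edgeR adjusted p = 0.341).

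The summed levels of markers of other cell types were, like NR3C1, lower at 10 nM than in vehicle. That of the 7 fibroblast markers in the table ran from 16.5 to 20.3 CPM at 10 nM and from 29.3 to 40.4 CPM in vehicle. That of 7 leukocyte and endothelial markers ran from 5.18 to 7.86 CPM at 10 nM and from 16.7 to 20.1 CPM in vehicle, and that of 5 basal markers from 2.32 to 2.78 CPM at 10 nM and from 7.28 to 8.17 CPM in vehicle. At 0.1 nM these sums ran from 20.5 to 26.3, 14.8 to 20.9 and 4.12 to 5.52 CPM.

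Single genes made up most of each sum. COL1A1, a collagen chain, averaged 18.1 ± 1.85 CPM at 10 nM and 32.6 ± 5.98 CPM in vehicle (SD, n = 3 each). VWF, the von Willebrand factor gene of endothelial cells, had 7.80, 5.16 and 6.28 CPM at 10 nM and 20.03, 16.7 and 19.3 CPM in vehicle, and ITGB4, a basal integrin, 1.42, 1.89 and 1.74 CPM at 10 nM and 7.41, 7.11 and 7.78 CPM in vehicle. All libraries of these genes at 10 nM lay below those of vehicle. Of the 4 fibroblast markers tested, COL1A1, COL3A1 and PDGFRB were lower at 10 nM, among them COL3A1 by 2.58 ± 0.30 on the log2 scale (edgeR adjusted p = 6.79e-07). The fourth, LUM, did not reach the filter level in any 10 nM library and had 0, 4 and 6 counts there, against 21, 11 and 23 counts in vehicle. Of the defining genes, DCN, PDGFRA and FAP averaged under 0.1 CPM in every group, FAP had 0 counts at 0.06, 0.1 and 10 nM, and PTPRC, CD3E, PECAM1 and CDH5 had 0 counts at 10 nM. Of the 3 basal markers tested ITGB4 was lower at 10 nM, while KRT14 and NGFR were called higher from a level near 0. KRT14 reached the filter level in no vehicle library and NGFR in 1 of 3. The NGFR call was lost with DESeq2 (adjusted p = 0.0662) and with library totals (edgeR adjusted p = 0.0558). It was also lost without vehicle library 2 or 3, or 10 nM library 2 or 4. The part of other cell types in the fall of NR3C1 was not tested.

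NR3C2 (ENSG00000151623.15; chr4:148078762-148444698, minus strand, GRCh38) was lower at 10 nM than in every other group. It had 15.6, 16.2 and 17.6 CPM in vehicle, 14.8, 15.4 and 14.0 CPM at 0.03 nM, 16.1, 18.2 and 14.2 CPM at 0.06 nM, 14.6, 15.9 and 16.2 CPM at 0.1 nM, and 8.49, 9.37 and 7.87 CPM at 10 nM. The 10 nM libraries lay below the 12 others, and the 4 other groups overlapped. NR3C2 was 1.91-fold lower at 10 nM than in vehicle (log2 -0.93 ± 0.093 SE, edgeR adjusted p = 1.07e-07) and 1.81-fold lower than at 0.1 nM (-0.86 ± 0.093, edgeR adjusted p = 8.93e-07). Against vehicle its log2 fold changes at 0.03, 0.06 and 0.1 nM were -0.16, -0.03 and -0.08, each with an SE near 0.09, and none passed (edgeR adjusted p = 0.316, 0.861 and 0.515).

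Per kilobase of merged exons, which allows genes to be compared, NR3C2 was the more abundant of the corticoid receptor transcripts throughout. NR3C2 stood at 1.30 ± 0.11 CPM per kb at 10 nM and 2.49 ± 0.16 in vehicle, and NR3C1 at 0.0157 ± 0.0088 at 10 nM and 0.0845 ± 0.026 in vehicle (SD, n = 3 each). The libraries of NR3C2 and NR3C1 did not overlap in any group. PGR, which encodes the progesterone receptor, averaged 0.00432 ± 0.0046 CPM per kb at 10 nM and 0.129 ± 0.025 in vehicle (SD, n = 3 each). PGR and NR3C1 were neighbours in this order, and their libraries overlapped in every group. PGR had 1, 8 and 1 counts at 10 nM, none at the filter level, against 70, 108 and 83 counts in vehicle. ESR1 and ESR2, which encode the estrogen receptors, did not pass the low-count filter.

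**Figure D3:**
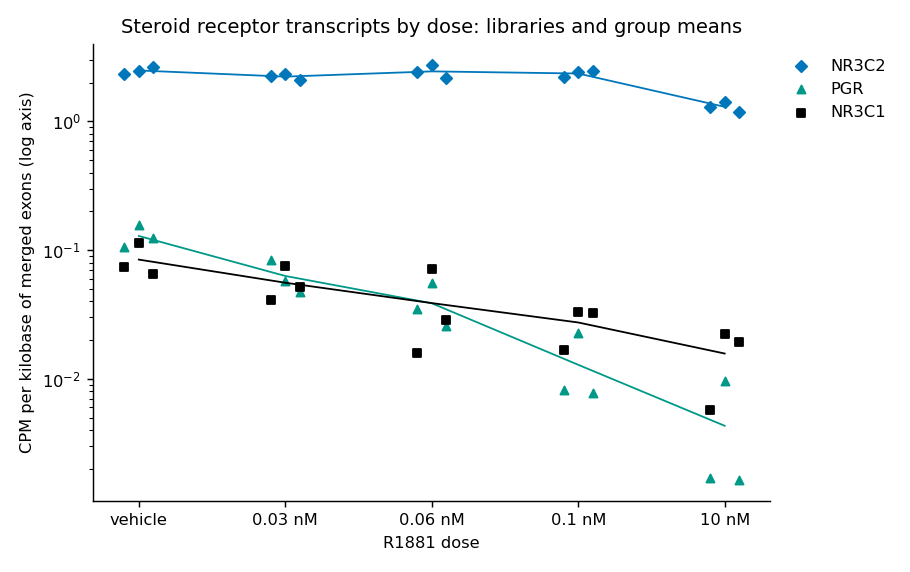
CPM per kilobase of merged exons (log axis) of NR3C2, PGR and NR3C1 by R1881 dose (evenly spaced); points are libraries and lines join group means. NR3C2 lies above NR3C1 and PGR in every group, at 2.49 in vehicle and 1.30 at 10 nM.

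SGK1 (ENSG00000118515.12; chr6:134169246-134318112, minus strand, GRCh38) encodes a kinase that carries corticosteroid signals to ion channels and that phosphorylates FOXO factors. It overlapped its vehicle level at the lowest doses and was high at 10 nM. SGK1 had 2.60, 3.40 and 1.73 CPM in vehicle, 2.22, 2.46 and 1.59 CPM at 0.03 nM, 2.54, 3.79 and 2.31 CPM at 0.06 nM, 4.33, 5.79 and 5.70 CPM at 0.1 nM, and 29.9, 31.6 and 39.0 CPM at 10 nM. Vehicle, 0.03 and 0.06 nM overlapped, the 0.1 nM libraries lay above them all, and the 10 nM libraries lay above every other library. SGK1 was 12.9-fold higher at 10 nM than in vehicle (log2 3.69 ± 0.20 SE, edgeR adjusted p = 3.11e-11) and 6.34-fold higher than at 0.1 nM (edgeR adjusted p = 4.02e-09). At 0.1 nM it was 2.04-fold higher than in vehicle (1.03 ± 0.22, edgeR adjusted p = 0.000856).

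The step of SGK1 from 0.06 to 0.1 nM, 0.89 ± 0.22 on the log2 scale, lay at the threshold (edgeR adjusted p = 0.0526). It passed with RLE size factors (adjusted p = 0.0466), with DESeq2 (0.0362), without the libraries numbered 3 (0.0128), with the replicate block (0.00495), with only the libraries compared (0.046), without the low-count filter, without 0.06 nM library 3 (0.0265) and without 0.1 nM library 2 (0.0432). At 0.03 and 0.06 nM SGK1 was at -0.33 ± 0.24 and 0.14 ± 0.23 against vehicle (edgeR adjusted p = 0.477 and 0.717).

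ZBTB16 (ENSG00000109906.15; chr11:114059593-114250676, plus strand, GRCh38) encodes PLZF, a zinc-finger repressor that glucocorticoids and androgens both induce. It had 56.5, 74.0 and 64.0 CPM in vehicle, 114, 138 and 122 CPM at 0.03 nM, 163, 166 and 168 CPM at 0.06 nM, 184, 203 and 197 CPM at 0.1 nM, and 280, 284 and 292 CPM at 10 nM. Every group lay wholly above the group of the next lower dose. ZBTB16 was 1.92-fold higher at 0.03 nM than in vehicle (log2 0.94 ± 0.080 SE, edgeR adjusted p = 8.24e-07), 2.55-fold higher at 0.06 nM, 3.0-fold higher at 0.1 nM and 4.4-fold higher at 10 nM (2.14 ± 0.082, edgeR adjusted p = 2.5e-13). It was the 1 gene of the 7 called against vehicle at 0.03 nM in the main fit. Steps of 0.41 ± 0.079 at 0.06 against 0.03 nM (edgeR adjusted p = 0.00507) and of 0.55 ± 0.078 at 10 against 0.1 nM (edgeR adjusted p = 1.81e-05) passed, and that of 0.23 ± 0.079 at 0.1 against 0.06 nM did not (edgeR adjusted p = 0.227). That step passed with the replicate block (adjusted p = 0.0128), with only the libraries compared (0.0496) and without the low-count filter.

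SGK1 and ZBTB16, the pair that rose at 10 nM, differed in how much of that rise was already there at low doses. As a share of the difference in mean CPM between 10 nM and vehicle, ZBTB16 had 27.2%, 45.7% and 58.8% at 0.03, 0.06 and 0.1 nM, with single libraries from 22.3% to 33.2%, 44.6% to 46.7% and 54.1% to 62.5%. SGK1 had -1.58%, 0.978% and 8.73%, with libraries at 0.1 nM from 5.67% to 10.4%. The ranges of the 2 genes did not overlap at any of the 3 doses; the difference itself was not tested. For scale, KLK3 had 17.9%, 37.3% and 52.9% and PER1, a clock gene induced by glucocorticoids and androgens, 14.0%, 35.3% and 50.1%. FKBP5, which binds HSP90 in steroid receptor complexes, had 1.55%, 6.38% and 17.7%, nearer to SGK1 than to ZBTB16 in this measure. Shares were taken on CPM, and on the log2 scale they would differ. FKBP5 averaged 58.1, 95.2, 211, 481 and 2452 CPM from vehicle through 10 nM. Unlike SGK1, it was called higher than vehicle at 0.03 nM and in every step between adjacent doses.

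**Figure D4:**
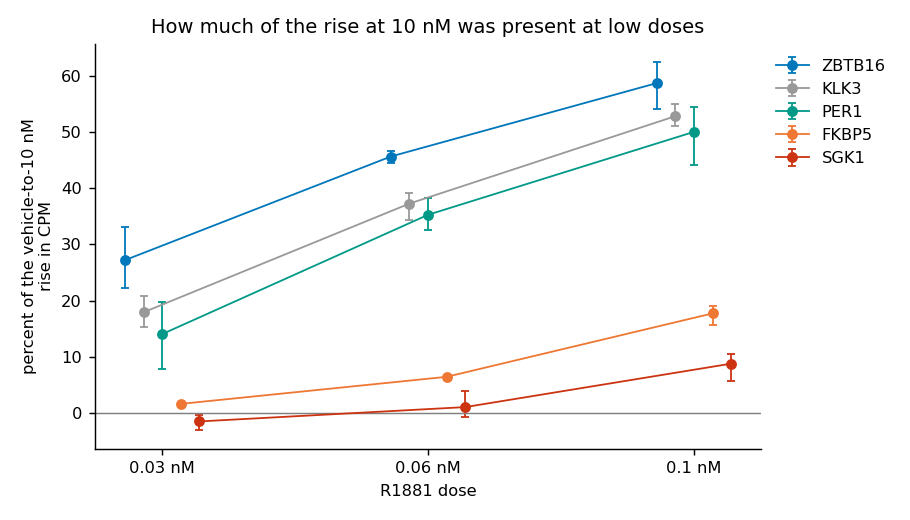
Share of the rise in CPM between vehicle and 10 nM that was present at 0.03, 0.06 and 0.1 nM (y axis, percent) for ZBTB16, KLK3, PER1, FKBP5 and SGK1; points are group means and bars span the lowest to the highest of 3 libraries. At 0.1 nM ZBTB16 stands at 58.8% and SGK1 at 8.73%.

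DUSP1, KLF9 and TSC22D3 were lower at 0.06 and 0.1 nM than in vehicle, and higher at 10 nM than at 0.1 nM. The stretches before the transcription starts of DUSP1 and KLF9 are shown because each has 1 annotated start in RefSeq's promoter table (GRCh38.p14). Both are given 5′ to 3′ on the minus strand and end at the base before the start, chr5:172771196-172771445 for DUSP1 and chr9:70414658-70414907 for KLF9; capitals mark the motifs TGACGTCA, the cAMP response element, and TATAAA, a core promoter word.
DUSP1: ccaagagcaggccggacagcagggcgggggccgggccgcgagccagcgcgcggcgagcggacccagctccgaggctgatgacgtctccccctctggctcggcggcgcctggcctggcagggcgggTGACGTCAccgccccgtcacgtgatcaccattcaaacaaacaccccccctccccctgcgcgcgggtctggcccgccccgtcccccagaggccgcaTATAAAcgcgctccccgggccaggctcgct
KLF9: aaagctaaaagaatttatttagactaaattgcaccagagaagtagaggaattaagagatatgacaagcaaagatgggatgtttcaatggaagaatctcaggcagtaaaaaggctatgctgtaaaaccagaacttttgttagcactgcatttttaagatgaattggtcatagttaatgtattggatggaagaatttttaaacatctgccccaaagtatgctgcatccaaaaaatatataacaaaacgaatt

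In the DUSP1 stretch TGACGTCA begins 125 bases and TATAAA 30 bases before its end, and neither word is in the KLF9 stretch. The table held 20 such windows for 6 of the 7 genes (NR3C1, NR3C2, SGK1, DUSP1, KLF9 and TSC22D3), some of them overlapping within a gene or reaching into its exons. Each was searched over the 250 bases before its start. TGACGTCA, which reads the same on both strands, was in 1 of the 20 against 1.65% of all 35116 windows. TATAAA, searched only on the strand of the gene, was in 4 of the 20 against 6.8%. AGAACA, the core of the element that steroid receptors of this family recognise, was searched on both strands. It was in 0 of the 20 against 12.4% of all windows. The 3 motifs share no letters in the stretches shown, and a match is a match of letters only.

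DUSP1 (ENSG00000120129.6; chr5:172768090-172771195, minus strand, GRCh38) encodes a phosphatase that switches off the MAP kinases p38 and JNK. It had 23.2, 20.9 and 22.7 CPM in vehicle, 21.8, 18.5 and 20.5 CPM at 0.03 nM, 19.4, 17.4 and 18.1 CPM at 0.06 nM, 18.5, 15.8 and 16.8 CPM at 0.1 nM, and 20.5, 22.9 and 22.97 CPM at 10 nM. The libraries at 0.06 and 0.1 nM lay below those of vehicle, those at 10 nM lay above those at 0.1 nM, and 10 nM and vehicle overlapped. Against vehicle DUSP1 was at -0.28 ± 0.079 at 0.06 nM (edgeR adjusted p = 0.0112) and at -0.39 ± 0.079 at 0.1 nM (edgeR adjusted p = 0.000712) on the log2 scale. At 10 nM it was higher than at 0.1 nM by 0.38 ± 0.079 (edgeR adjusted p = 0.000834), and differed from vehicle by -0.01 ± 0.078 (edgeR adjusted p = 0.947).

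KLF9 (ENSG00000119138.5; chr9:70384597-70414624, minus strand, GRCh38) encodes a Krüppel-like transcription factor with a well-known glucocorticoid response. It had 81.6, 87.0 and 88.1 CPM in vehicle, 75.5, 72.9 and 72.7 CPM at 0.03 nM, 59.6, 71.9 and 63.2 CPM at 0.06 nM, 60.3, 72.5 and 60.4 CPM at 0.1 nM, and 74.2, 94.7 and 77.4 CPM at 10 nM. No library of 0.03, 0.06 or 0.1 nM reached the vehicle range, and the 10 nM libraries lay above those at 0.1 nM and overlapped vehicle. Against vehicle KLF9 was at -0.40 ± 0.089 at 0.06 nM (edgeR adjusted p = 0.00226) and -0.41 ± 0.089 at 0.1 nM (edgeR adjusted p = 0.00123), and higher at 10 nM than at 0.1 nM by 0.35 ± 0.089 (edgeR adjusted p = 0.00418) on the log2 scale. At 0.03 nM it was at -0.21 ± 0.089 (edgeR adjusted p = 0.16); this passed without the libraries numbered 3 (adjusted p = 0.0371), with the replicate block (0.0148), in a fit of only the 2 groups (0.0436) and without the low-count filter. With the block KLF9 at 0.06 nM was also below 0.03 nM, by a log2 value of -0.19 (adjusted p = 0.0327), where the fit without it gave edgeR adjusted p = 0.254.

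TSC22D3 (ENSG00000157514.17; chrX:107713221-107777342, minus strand, GRCh38) encodes GILZ, a leucine-zipper protein that mediates anti-inflammatory effects of glucocorticoids. Its exons overlap those of NCBP2L on the opposite strand, which had 232 counts over the 15 libraries against 19841 for TSC22D3. It had 34.1, 40.9 and 33.8 CPM in vehicle, 31.8, 31.9 and 29.1 CPM at 0.03 nM, 28.99, 29.7 and 26.6 CPM at 0.06 nM, 23.4, 25.0 and 27.6 CPM at 0.1 nM, and 41.5, 32.5 and 43.3 CPM at 10 nM. The libraries of the 3 low doses lay below all vehicle libraries, and those at 10 nM lay above them and overlapped vehicle.

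At 0.1 nM TSC22D3 was at -0.52 ± 0.10 against vehicle on the log2 scale (edgeR adjusted p = 0.000396), and at 10 nM it was higher than at 0.1 nM by 0.62 ± 0.10 (edgeR adjusted p = 6.48e-05). Its call at 0.06 nM (-0.35 ± 0.099, edgeR adjusted p = 0.0116) was lost without vehicle library 3 (adjusted p = 0.0744) or 0.06 nM library 4 (0.0587). At 10 nM it differed from vehicle by 0.10 ± 0.098 (edgeR adjusted p = 0.38). Without the libraries numbered 3 that value was 0.32, which passed (adjusted p = 0.00171), and without only the 10 nM library numbered 3 it was 0.21 (adjusted p = 0.0489).

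The return of this trio at 10 nM depended on the scaling in part. With library totals in place of TMM-scaled sizes, the median of all genes moved by -0.21 on the log2 scale at 10 nM against vehicle, and genes called were 3069 higher and 7987 lower, in place of 5399 higher and 5209 lower. On that scale DUSP1 and KLF9 at 10 nM were below vehicle, at -0.22 (adjusted p = 0.0469) and -0.27 (adjusted p = 0.00746), and TSC22D3 was at -0.10, with its sign turned. Against 0.1 nM, where the median moved by -0.15 and calls were 2164 higher and 5994 lower in place of 3787 and 3589, DUSP1 was at 0.22 (adjusted p = 0.0583) and KLF9 at 0.20 (adjusted p = 0.0567), while TSC22D3 kept its call. KLF9 at 10 nM was also called below vehicle, at -0.17, without the libraries numbered 3 (adjusted p = 0.0181).

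Other genes with a known glucocorticoid response were mostly higher at 10 nM. Of 36 listed, 30 were tested: at 10 nM against vehicle 19 were higher and 6 lower, where 29.3% of all tested genes were higher and 28.3% lower; the median log2 fold change was 0.93 against -0.01 over all tested genes. At 0.03 nM 3 were higher and 2 lower (all genes 5.47% and 3.16%), at 0.06 nM 8 and 6 (16.9% and 14.3%), and at 0.1 nM 11 and 6 (21.5% and 20.6%). With the replicate block 10 were higher and 5 lower at 0.03 nM, where 3195 of all tested genes were called in place of 1588. At 0.06 nM they were 9 and 10 with the block. The share of all genes higher and lower with the block is not given here, so the shares above do not apply to these counts. FKBP5 averaged 2452 ± 84.6 CPM at 10 nM and 58.1 ± 2.37 CPM in vehicle (SD, n = 3 each), and was 42.2-fold higher at 10 nM (edgeR adjusted p = 2.97e-18). ERRFI1, a feedback inhibitor of the EGF receptor, was 18.5-fold higher (edgeR adjusted p = 2.76e-16), TIPARP, an ADP-ribosyltransferase, 5.08-fold (edgeR adjusted p = 1.76e-14), PER1 4.56-fold (edgeR adjusted p = 2.55e-12) and NFKBIA, the inhibitor of NF-kappaB, 3.09-fold (edgeR adjusted p = 4.73e-14). These genes were named because their p was smallest, except PER1, which was named in any case. The 6 lower at 10 nM than in vehicle were TXNIP, BIRC3, PIK3R1, MT2A, DDIT4 and PHLDA1. TXNIP, the lower gene with the smallest p, averaged 93.9 CPM at 10 nM and 254 CPM in vehicle. Against 0.1 nM, 20 of the 30 were higher at 10 nM and 5 lower, where 20.6% and 19.5% of all tested genes were. With library totals the counts at 10 nM against vehicle were 17 and 6, where 3069 of all 18403 tested genes were higher and 7987 lower. Without the libraries numbered 3 they were 20 higher and 5 lower of 29 tested.

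**Figure D5:**
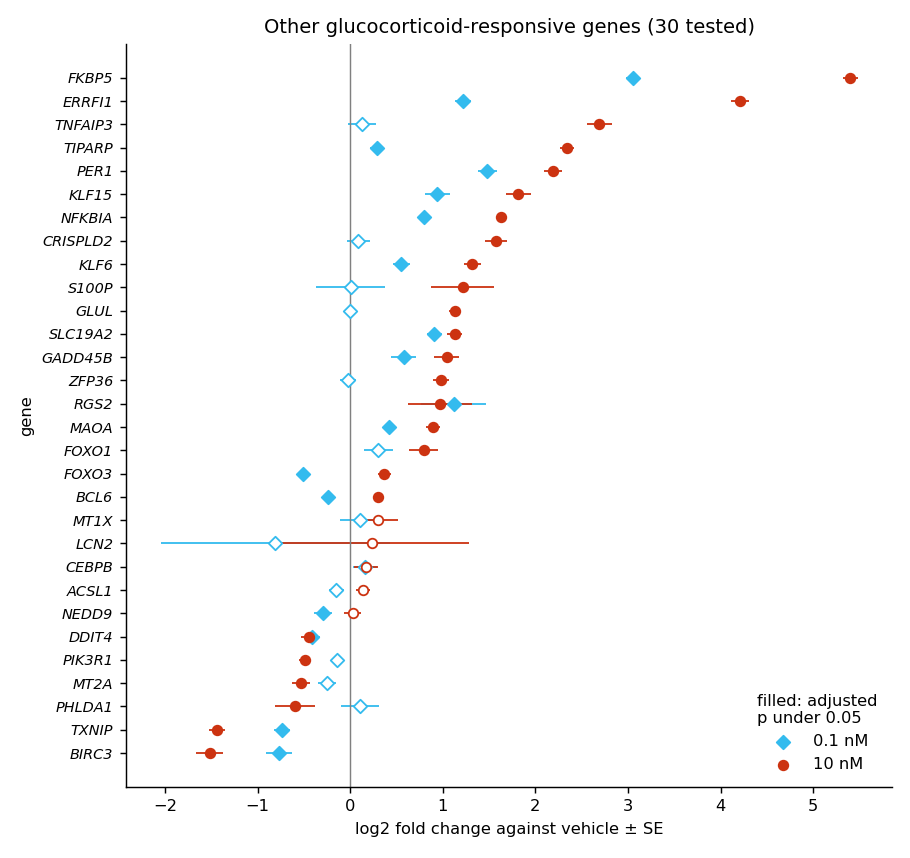
Log2 fold change against vehicle (x axis, ± SE) at 0.1 and 10 nM R1881 of the 30 tested genes with a known glucocorticoid response other than the 7, ordered by the value at 10 nM; filled symbols had an adjusted p under 0.05. At 10 nM 19 genes are filled to the right of 0 and 6 to the left, with FKBP5 highest.

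Genes of the mineralocorticoid response and sodium transport split by direction. Of 20 listed, 15 were tested, and at 10 nM against vehicle 5 were higher and 7 lower, where 29.3% and 28.3% of all tested genes were; the median log2 fold change was 0.01. STK39, a kinase that activates sodium-chloride cotransporters, was 7.06-fold higher (edgeR adjusted p = 6.66e-16), RASD1, a small G protein, 3.40-fold (edgeR adjusted p = 1.33e-10) and NEDD4L, a ubiquitin ligase that removes the epithelial sodium channel, 2.12-fold (edgeR adjusted p = 9.76e-08). HSD11B2, which inactivates cortisol and so keeps it from the mineralocorticoid receptor, was 1.38-fold lower (edgeR adjusted p = 6.25e-07). The higher genes given here were named because their p was among the smallest. Beside HSD11B2, the 7 lower genes held CNKSR3, CLDN4, ATP1B1, SCNN1A, USP2 and SCNN1B. SCNN1A averaged 87.2 CPM at 10 nM and 140 CPM in vehicle, and SCNN1B 0.0963 and 0.747 CPM.

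Chaperones, cofactors and enzymes that act with the corticoid receptors moved both ways. Of 22 listed, 19 were tested, with 8 higher and 5 lower at 10 nM against vehicle. Of all tested genes 29.3% were higher and 28.3% lower, so the share called lay near the 57.6% of all genes. With library totals 3 of the 19 were higher and 8 lower, where 3069 of all 18403 tested genes were higher and 7987 lower. The split of this group thus moved with the scaling as that of all genes did. Beside FKBP5 and HSD11B2, PTGES3, the p23 co-chaperone, was higher by 0.48 ± 0.058 (edgeR adjusted p = 1.28e-06) and NCOR1, a corepressor, by 0.51 ± 0.052 (edgeR adjusted p = 1.28e-07) on the log2 scale.

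Relatives of the 5 target genes were called in both directions. Of 14 paralogs listed, 12 were tested, with 6 higher and 4 lower at 10 nM against vehicle. Of all tested genes 57.6% changed there, 29.3% higher and 28.3% lower. With library totals 4 paralogs were higher and 5 lower, where 3069 of all 18403 tested genes were higher and 7987 lower. TSC22D1, a paralog of TSC22D3, was 3.57-fold higher (edgeR adjusted p = 5.38e-14), while KLF13 was 1.5-fold lower (edgeR adjusted p = 8.47e-08), DUSP16 1.38-fold lower (edgeR adjusted p = 9.44e-07) and KLF16 1.45-fold higher (edgeR adjusted p = 7.71e-06). Of 16 immediate-early genes, the class to which DUSP1 belongs, 13 were tested, with 6 higher and 4 lower at 10 nM, and 4 higher and 5 lower at 0.1 nM, where 42.1% of all tested genes changed, 21.5% higher and 20.6% lower. NR4A1, an orphan nuclear receptor, was 7.85-fold higher at 10 nM than in vehicle (edgeR adjusted p = 6.12e-16), KLF4 6.41-fold (edgeR adjusted p = 8.24e-12), CCN1 2.39-fold (edgeR adjusted p = 1.29e-08) and ZFP36, which destabilises inflammatory mRNAs, 1.97-fold (edgeR adjusted p = 1.57e-08). These 4 were named because their p was smallest, while of the 13 tested 4 were lower at 10 nM and 3 were not called. DUSP1 itself differed from vehicle at 10 nM by -0.01 ± 0.078 on the log2 scale.

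Likeness to each of the 7 was the root mean square difference of mean-centred log2 CPM over the 15 libraries. It was taken for 10816 candidate genes, which did not cover the whole genome. A gene outside the candidates may be closer than the most like genes named here. For SGK1 these were ERRFI1 (0.32), MICAL1 (0.33) and LIFR (0.33), against a range of 3.98 between the group means of SGK1 itself. ERRFI1 averaged 24.4, 28.9, 38.2, 56.5 and 450.2 CPM from vehicle through 10 nM, and LIFR, a cytokine receptor, 36.7, 33.7, 38.9, 64.1 and 417.4 CPM. For ZBTB16 they were TMTC2 (0.090), ELOVL5 (0.092) and NT5DC3 (0.11). ELOVL5, a fatty acid elongase, averaged 256, 449, 625, 763 and 1168 CPM from vehicle through 10 nM, a stepwise series like that of ZBTB16.

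For NR3C2 the most like were TLN2 (0.10), LARGE2 (0.11) and SLC39A8 (0.12). SLC39A8, a metal transporter, averaged 84.1, 85.0, 86.1, 86.0 and 50.7 CPM from vehicle through 10 nM. For NR3C1, LINC01133 (0.31), SLC7A5 (0.40) and MARCHF1 (0.42) came first, against a range of 2.16 between its own group means. Candidates reached a mean of at least 5 CPM in 1 group, a level above that of NR3C1 in every library. LINC01133 averaged 8.72, 6.93, 5.12, 4.20 and 1.97 CPM over the same series.

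For the trio that dipped the differences were small, as were the ranges of the genes. DUSP1 was most like H2AC6 (0.066), GTF2B (0.070) and UPRT (0.074), and KLF9 was most like SGTB (0.059), IL6ST (0.062) and MME (0.072). MME, the cell-surface peptidase neprilysin, averaged 2028, 1831, 1665, 1558 and 1980 CPM from vehicle through 10 nM, a dip and return like that of KLF9. TSC22D3 was most like PRSS16 (0.11), PCAT6 (0.12) and PLEKHM1 (0.12). PLEKHM1 averaged 25.8, 22.5, 20.5, 19.0 and 25.6 CPM over the series.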

How the data were processed

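Per the labels' protocols, poly(A) RNA libraries (KAPA Stranded mRNA-Seq) were made from 15 LNCaP samples. Per the submitters' processing notes Trimmomatic 0.39, STAR 2.7.8a and DESeq2 1.36.0 were used on GRCh38; the read counter, annotation release and strand setting are not given in the sources used here. The values deposited by the authors are whole-number counts per Ensembl gene, 1 column per library. The series has 30 samples; 15 columns of a VCaP table matched no label and were not used.

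Gene IDs were matched without version to symbols (37732 matched); positions are from GENCODE 29 and start-site windows from RefSeq. edgeR 4.0.16 in R 4.3.3 was run on all 15 libraries: TMM scaling, filterByExpr, quasi-likelihood fits with 1 mean per group, two-sided tests, Benjamini-Hochberg adjusted p under 0.05 over 18403 genes. There were 7 comparisons: each dose against vehicle and 3 between adjacent doses. Library totals of 30666460 to 61199483 counts set the precision, and since the labels name no molecular identifiers, reads may not be independent molecules. CPM are counts over TMM-scaled library sizes. Likeness used log2 CPM with a prior count of 2. Its 10816 candidates each had a mean of at least 5 CPM in 1 group and did not cover the whole genome.

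The members, gene lists and tests were chosen with earlier results of these data known. Named genes are the 7 members, up to 4 genes per list with the smallest p at 10 nM, KLK3, FKBP5, PER1, HSD11B2 and 3 like genes per member; a few of these are left unreported. ESR1 and ESR2, and the fibroblast genes DCN, PDGFRA and FAP and the genes PTPRC, CD3E, PECAM1 and CDH5, were named to complete counts, after their values were seen. So were the genes lower at 10 nM in the glucocorticoid and mineralocorticoid lists, other than HSD11B2. Alternatives were RLE size factors, library totals, DESeq2 1.42.0, leaving the low-count filter off, a stricter one (mean count at least 20, with 1 CPM or more in 3 libraries), a block for the replicate number, fits of the compared libraries alone, leaving out the 5 libraries numbered 3, and leaving out each library. Deviations of same-numbered libraries from their group means correlated at 0.0348 to 0.315 over genes (21 pairs); all 3 pairs were above 0.1 in 3 of 7 comparisons, 0.03 and 0.1 nM against vehicle and 0.06 against 0.03 nM. The labels do not tie a number to a shared culture or day, so the fit without the block is the main one, and blocked values stand beside it where they change a call. The test was also tried on simulated data in which few genes changed, so that trial does not check the scaling at 10 nM.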

Additional observations from a re-analysis of the deposited data

How the results depend on the processing

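Of the values of single genes under the alternatives, 1089 kept direction and side of the threshold, 16 lost a call, 24 gained one and 17 changed sign; the causes were not tested. Genes called at 0.03 nM against vehicle were 1588, against 3195 with the replicate block, 1008 with only the libraries compared and 979 to 1309 leaving out 1 library; at 0.06 against 0.03 nM they were 1152, against 2926 with the block, 1949 without the libraries numbered 3 and 434 to 1221; at 0.1 against 0.06 nM they were 251, against 501 without the low-count filter, 899 with the block, 407 without the libraries numbered 3, 385 with DESeq2 and 106 to 205. The block changed the calls of KLF9 at 0.03 nM and at 0.06 against 0.03 nM, and of SGK1 and ZBTB16 at 0.1 against 0.06 nM, and no other call of the 7 genes. Of the 7 genes, those called at 0.03 nM were 1, against 3 without the filter and 2 with the block, without the libraries numbered 3, or with only the libraries compared; at 0.06 against 0.03 nM they were 1, against 2 without the filter, with the block or without the libraries numbered 3; at 0.1 against 0.06 nM none, against 2 without the filter, with the block or with only the libraries compared, 1 with RLE, DESeq2 or without the libraries numbered 3, and 0 to 1 leaving out 1 library. At 0.06 nM they were 5, and 3 to 5 leaving out 1 library (3 without vehicle library 3 or 0.06 nM library 4). DUSP1 at 10 nM against vehicle turned to 0.00896 with RLE and 0.0129 with DESeq2, and ran from -0.0618 to 0.0323 leaving out 1 library. TSC22D3 there was -0.101 with library totals. Without the libraries numbered 3, NR3C1 and NR3C2 at 0.1 against 0.06 nM were 0.127 and 0.0285. Leaving out 1 library, the same step ran from -0.816 to 0.309 for NR3C1, -0.137 to 0.0379 for NR3C2 and -0.105 to 0.0705 for KLF9, and at 0.06 nM against vehicle the ranges were -0.117 to 0.0599 for NR3C2 and -0.089 to 0.39 for SGK1. With library totals the split at 0.06 against 0.03 nM was 472 higher and 395 lower, against 773 and 379. NR3C1 was left out by the stricter filter, and DESeq2 gave it no adjusted p at 0.03 nM against vehicle and in the steps to 0.06 and 0.1 nM; with 2 to 47 counts per library its values have the largest SE of the 7 genes.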
